A study of Mus musculus with 14 samples.

Results

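Hk1, Hk2, Pfkl, Pfkp, Pfkm, Pfkfb2 and Pfkfb3 are 7 of the 29713 genes listed in 14 RNA-seq libraries of mouse neural stem cells. They encode hexokinases, the phosphofructokinase subunits and bifunctional enzymes that set the activity of the latter, and they were chosen by their deposited TPM and expected counts over the 14 libraries, on the share of each isoform in its family by stage. Their levels and shares by stage are therefore given as a description without a test. Tests are given for the drug and culture comparisons and for other genes of the pathway.

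The cells were of the OG2 strain, which carries a green fluorescent reporter driven by Pou5f1 regulatory sequence, so every library shares that transgene. The drug experiment comprised 12 libraries at passage 8: undifferentiated cells and cells differentiated for 2, 4 or 8 days, each as an arm labelled NC, an arm with naloxone, an opioid receptor antagonist, and an arm with DAMGO, a μ-opioid receptor agonist. Undifferentiated reference cells without a drug label gave 1 library at passage 8 and 1 at passage 13. The labels do not state doses, the differentiation medium, what NC stands for or whether cultures were pooled, and each condition was 1 library, so that p-values measure only the spread between these libraries, which may be technical.

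Hexokinases phosphorylate glucose on entry into the cell. Hk1 is the constitutive form of the brain, and Hk2 is the regulated form of muscle, adipose tissue and many proliferating cells; both bind the outer mitochondrial membrane. Phosphofructokinase, the committed step of glycolysis, is a tetramer built from liver-type (Pfkl), platelet-type (Pfkp) and muscle-type (Pfkm) subunits, and the PFKFB enzymes make and degrade the sugar phosphate that activates it most strongly. Pfkfb3 has high kinase activity, and its protein is degraded in neurons but retained in astrocytes.

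The totals were 4143030 to 9070533 estimated counts per library, so that 3 counts corresponded to 0.354 to 0.693 CPM (estimated counts scaled for library size with TMM). All 5 neural stem cell markers examined (Nes, Sox2, Pax6, Msi1 and Fabp7) were present at 1 CPM or more in the undifferentiated cells, where they summed to 4094 to 4342 CPM. At day 8 their sum was 1220 to 1454 CPM, with Nes and Fabp7 lower and Sox2, Pax6 and Msi1 higher than in undifferentiated cells. The sum of 5 proliferation genes went from 3026 to 3166 CPM in undifferentiated cells to 166 to 216 CPM at day 2 and 29.6 to 31.8 CPM at day 8. The sum of 5 astrocyte markers went from 926 to 950 CPM to 14490 to 16170 CPM at day 8. The sums of oligodendrocyte lineage and neuronal markers were highest at day 4, at 1949 to 1995 CPM and 495 to 528 CPM. Single markers differed from their sum: Mbp was highest at day 8 (56.2 to 57.4 CPM), Snap25 in undifferentiated cells (6.39 to 9.88 CPM), and Dcx made up most of the neuronal sum at day 4 (323 to 346 CPM). The cell make-up thus moved with every stage result below, and its part in them was not tested; in bulk RNA fewer cells of a type and less RNA per cell cannot be told apart. Microglial markers never summed to more than 1.12 CPM, with Cx3cr1 at 0 in all libraries, and muscle markers, relevant to the muscle-type Pfkm, never to more than 0.864 CPM. Endothelial markers summed to 2.42 to 3.8 CPM in undifferentiated cells and 16.9 to 24.4 CPM at day 8, with Cdh5 and Cldn5 at 0 in all libraries. Kdr alone carried this rise, from 1.75 to 2.42 CPM to 16.5 to 24.1 CPM. Pecam1 and Tek stood at no more than 0.346 CPM at day 8.

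Of the 7 isoform genes, 5 were higher at day 8 than in undifferentiated cells and 2 were lower (Hk2 and Pfkl), with no overlap between the 3 libraries of either stage for any of them. The share of all genes without such overlap was not counted. Of all 13413 genes tested, 79.8% changed between these stages in edgeR's quasi-likelihood test (41.5% higher and 38.3% lower), so a change alone did not set the isoform genes apart. The stages differed in which isoforms carried the family. Hk2 supplied 31.3% ± 3.89 (SD, n = 3) of the hexokinase TPM (transcript abundance, which is per length) in undifferentiated cells and 0.644% ± 0.155 at day 8. Pfkl supplied 52.4% ± 3.07 of phosphofructokinase TPM in undifferentiated cells and 11.4% ± 2.03 at day 8, when Pfkm supplied 64.0% ± 0.471. Within the drug experiment the leading isoform changed in 1 of the 3 families, from Pfkl to Pfkm. Hk1 and Pfkfb3 led theirs at every stage by the stage means. In the undifferentiated reference libraries, given below, Pfkm already led its family. The SD of a stage is over 3 libraries that differ in treatment, so it holds library noise and any drug effect.

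**Figure D1:**
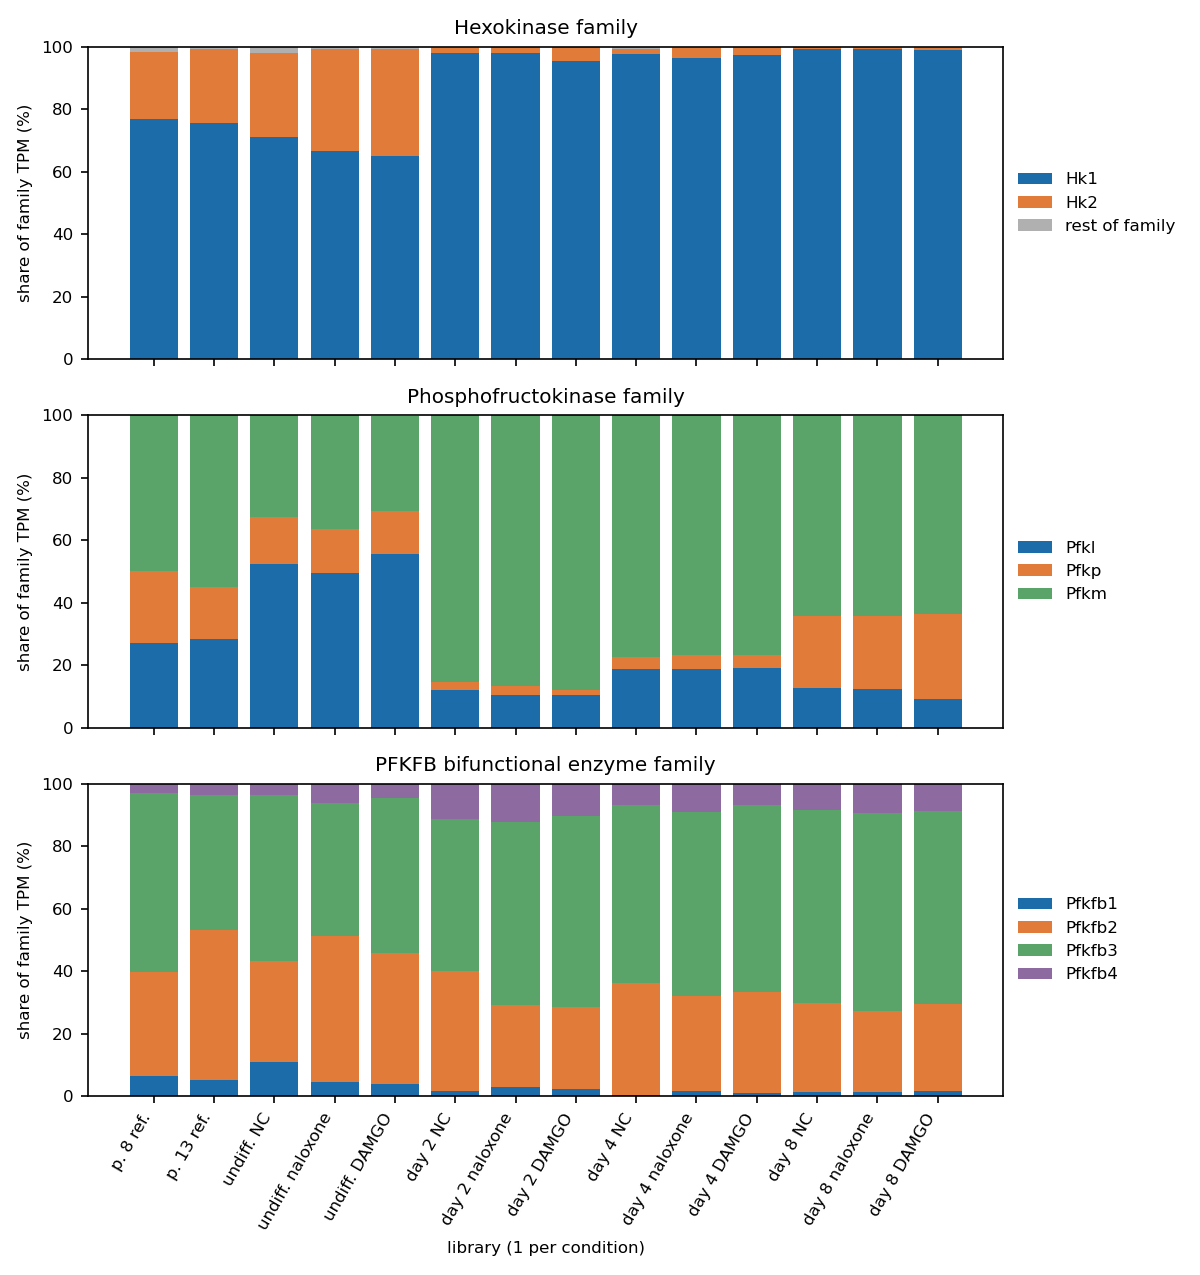
Share of each isoform in the summed TPM of its family (percent, vertical axis) in each of the 14 libraries (horizontal axis), for hexokinases, phosphofructokinase subunits and PFKFB enzymes from top to bottom, with hexokinases other than Hk1 and Hk2 summed in grey. Hk2 is visible as a block of 21.5 to 34.3% only in the 5 undifferentiated libraries, Pfkl is the largest phosphofructokinase block only in the 3 undifferentiated libraries of the drug experiment, and Pfkp returns at day 8.

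The hexokinase family was carried by Hk1 and Hk2. Hk1 lies on the minus strand at chr10:62268855-62379908 and Hk2 on the minus strand at chr6:82725025-82774454 (GRCm38). Since these 2 genes moved in opposite directions, 250 bases upstream of a RefSeq start of each are shown (RefSeq, GRCm38.p6, minus strand, windows chr10:62379909-62380158 and chr6:82774455-82774704), with capitals marking ACGTG or GCGTG on either strand, the core of hypoxia response elements.
Hk1: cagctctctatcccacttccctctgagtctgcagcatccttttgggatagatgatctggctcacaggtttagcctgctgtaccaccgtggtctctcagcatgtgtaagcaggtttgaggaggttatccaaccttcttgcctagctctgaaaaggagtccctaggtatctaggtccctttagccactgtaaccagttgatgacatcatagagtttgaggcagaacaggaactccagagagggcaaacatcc
Hk2: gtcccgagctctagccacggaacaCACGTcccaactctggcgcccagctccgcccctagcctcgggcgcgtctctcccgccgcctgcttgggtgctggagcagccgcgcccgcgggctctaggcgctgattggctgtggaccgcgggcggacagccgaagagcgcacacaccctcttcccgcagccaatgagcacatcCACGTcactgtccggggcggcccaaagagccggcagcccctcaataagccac
The Hk2 window held 2 matches to ACGTG, read here as their reverse complement, starting 226 and 52 bases upstream of the start, and the Hk1 window held none. A second RefSeq start of Hk1, whose window overlaps annotated exons, held 3 matches to GCGTG. Over 32851 promoter windows of this length, 16.6% held ACGTG, 28.2% GCGTG and 38.6% either. The matches describe letters in these windows only, and which start the libraries' transcripts used was not measured.

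Hk2 stood at 58.1, 62.9 and 64.9 CPM in the undifferentiated NC, naloxone and DAMGO libraries. At day 2 it stood at 3.34, 3.04 and 4.32 CPM, at day 4 at 4.3, 5.15 and 5.55 CPM, and at day 8 at 4.12, 3.9 and 3.63 CPM. The undifferentiated libraries were thus far above all 9 differentiating ones, and day 2 overlapped day 4 and day 8. Day 4 lay above day 8 in CPM, while in TPM these stages overlapped (1.76 to 3.17 and 1.53 to 2.31). The mean was 17.4-fold lower at day 2 than in undifferentiated cells, 12.4-fold lower at day 4 and 15.9-fold lower at day 8. The estimated counts behind these values were 288 to 370 in undifferentiated libraries and 21 to 33 in differentiating ones, well above the 3 counts taken as the floor. Between day 8 and day 2 the ratio of means was 1.09 in CPM and 0.934 in TPM, so no order among the differentiating stages was read.

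Hk1 stood at 126, 131 and 137 CPM in undifferentiated cells and at 134, 161 and 151 CPM at day 2. It stood at 153, 158 and 157 CPM at day 4 and at 648, 664 and 636 CPM at day 8. The first 3 stages lay close together, with undifferentiated and day 2 libraries overlapping, and the 3 day 8 libraries stood apart. The day 8 mean was 4.95-fold that of undifferentiated cells and 4.16-fold that of day 4. Hk2 was thus already low at day 2 and day 4, when Hk1 was still near its undifferentiated level. The summed TPM of the family was 101 ± 7.74 before differentiation, 76.3 ± 2.03 at day 2, 97.5 ± 0.932 at day 4 and 292 ± 8.54 at day 8.

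Within the family, Hk1 held 71.2, 66.7 and 65.1% of the TPM in undifferentiated cells (NC, naloxone and DAMGO) and 99.3, 99.3 and 99.0% at day 8. The ratio of Hk1 to Hk2 TPM was 1.9 to 2.65 before differentiation, 21.4 to 59.7 at day 2, 29.4 to 53.9 at day 4 and 122 to 196 at day 8. The ratios thus rose in steps between undifferentiated and day 2 and between day 4 and day 8, with day 2 and day 4 overlapping. TPM of Hk2 also moved with the transcript length that RSEM assigned to the gene, which ranged from 2511 to 5513 bases between libraries. At day 2, for example, 23, 24 and 24 estimated counts became 1.23, 1.42 and 3.37 TPM. Shares of counts, which do not use the length, gave Hk2 31.4, 32.4 and 32.0% in undifferentiated cells and 0.631, 0.583 and 0.567% at day 8.

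Among the other hexokinases, Hk3 was at 0 in all 14 libraries, which allows at most 0.354 to 0.693 CPM per library. Hkdc1, a hexokinase-like gene beside Hk1 on chromosome 10, was at 0 in all undifferentiated libraries and at 0.519 to 0.75 CPM at day 8, near the level of 3 counts.

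**Figure D2:**
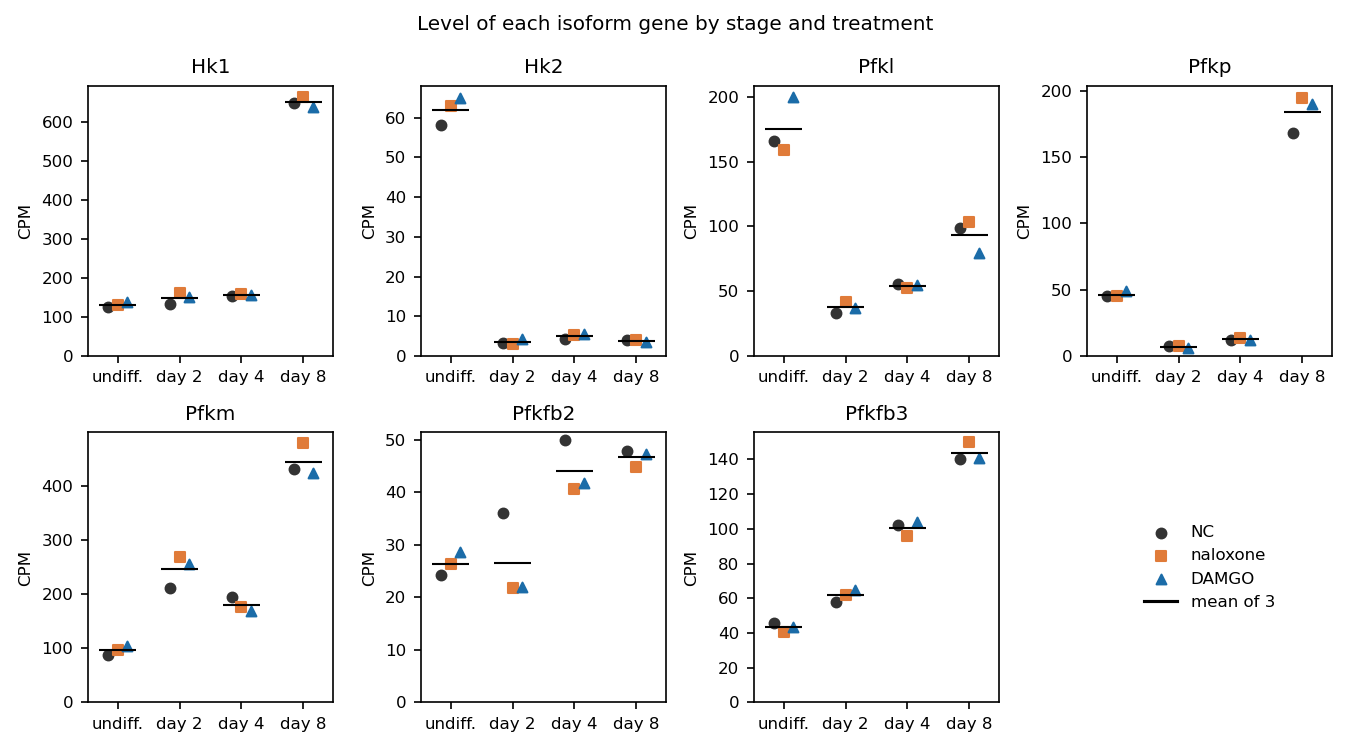
Level of each of the 7 isoform genes (CPM, vertical axis from 0, scale differing between panels) in the 12 libraries of the drug experiment by stage (horizontal axis); circles are NC, squares naloxone, triangles DAMGO, and the bar is the mean of the 3. Hk2 drops to 3.04 to 5.55 CPM after the undifferentiated stage, Pfkl and Pfkp are lowest at day 2, and Hk1, Pfkp and Pfkm are highest at day 8.

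The phosphofructokinase subunits each followed a course of their own. Pfkl lies at chr10:77986947-78010083 and Pfkp at chr13:6579768-6648777, both on the minus strand, and Pfkm on the plus strand at chr15:98092589-98132451 (GRCm38). Pfkl stood at 166, 159 and 200 CPM before differentiation, 33.1, 42.0 and 37.2 CPM at day 2, 55.3, 52.8 and 54.8 CPM at day 4, and 98.4, 103 and 79.2 CPM at day 8. In CPM the 4 stages did not overlap, with day 2 lowest and undifferentiated cells highest, while in TPM day 4 (33.7 to 38.0) and day 8 (36.8 to 58.0) overlapped. The mean was 4.67-fold lower at day 2 than in undifferentiated cells and 1.87-fold lower at day 8, so that the fall was in part regained.

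Pfkp stood at 44.8, 45.0 and 48.7 CPM in undifferentiated cells and at 7.42, 7.39 and 5.92 CPM at day 2. It then stood at 12.1, 13.4 and 11.9 CPM at day 4 and at 168, 194 and 190 CPM at day 8. Here too the stages did not overlap, but day 8 was the highest: its mean was 3.98-fold that of undifferentiated cells, 14.8-fold that of day 4 and 26.6-fold that of day 2. Of the 7 genes Pfkp had the largest fold between any pair of stages.

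Pfkm stood at 88.1, 96.8 and 104 CPM in undifferentiated cells and at 212, 269 and 256 CPM at day 2. It stood at 194, 176 and 169 CPM at day 4 and at 431, 479 and 423 CPM at day 8. Every differentiating library lay above the undifferentiated ones, and in CPM day 4 lay below day 2. In TPM day 2 (153 to 180) and day 4 (136 to 156) overlapped. The mean in CPM was 2.55-fold that of undifferentiated cells at day 2, 1.87-fold at day 4 and 4.62-fold at day 8. Pfkm was therefore already higher at day 2, the stage at which Pfkl and Pfkp were lowest.

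The subunits moved in opposite directions early, and the family total changed less than its members. The summed TPM was 206 ± 29.0 before differentiation, 195 ± 14.2 at day 2, 188 ± 12.9 at day 4 and 423 ± 33.8 at day 8 (SD, n = 3 each). The first 3 stages did not differ beyond their spread, while the share of Pfkm among them went from 33.2% ± 2.91 to 86.7% ± 1.24 and 77.0% ± 0.31. Pfkl held 52.3, 49.4 and 55.5% before differentiation, 10.9% ± 0.898 at day 2, 18.8 to 19.0% at day 4 and 9.06 to 12.6% at day 8. Pfkp held 14.4% ± 0.581 before differentiation, 1.68 to 2.91% at day 2, 3.89 to 4.3% at day 4 and 23.0, 23.2 and 27.4% at day 8. At day 8 the order of TPM levels was thus Pfkm, Pfkp and Pfkl in all 3 libraries, against Pfkl, Pfkm and Pfkp in the 3 undifferentiated ones.

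For Pfkm, the subunit that led from day 2 onward, 250 bases upstream of its first annotated start are shown (RefSeq, GRCm38.p6, plus strand, window chr15:98092339-98092588), with capitals marking the palindromic E-box CACGTG, the site class of Myc and related factors, which contains ACGTG on both strands.
Pfkm: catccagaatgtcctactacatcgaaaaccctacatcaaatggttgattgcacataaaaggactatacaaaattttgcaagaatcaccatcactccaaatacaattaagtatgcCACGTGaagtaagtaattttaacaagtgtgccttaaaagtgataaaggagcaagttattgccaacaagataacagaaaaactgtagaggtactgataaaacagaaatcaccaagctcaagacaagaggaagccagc
The E-box lay 136 bases upstream of this start. The windows of the other RefSeq starts of Pfkm held no CACGTG, and which start the libraries' transcripts used was not measured. CACGTG was in 6.0% of the 32851 windows and in 3 of the 14 windows of the 7 isoform genes. ACGTG or GCGTG was in 12 of these 14 windows, 1 or more for each gene, against 38.6% of the 32851 windows. Some windows of Pfkm and of Pfkfb2 overlap each other, so the 14 are not independent, and enrichment was not tested. Of the 14 windows, 7 overlap annotated exons and are not printed.

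The PFKFB family was carried by Pfkfb2 and Pfkfb3. Pfkfb2 lies on the minus strand at chr1:130689182-130729253 and Pfkfb3 on the minus strand at chr2:11471433-11554077 (GRCm38). Pfkfb3 stood at 46.0, 40.8 and 43.6 CPM before differentiation, 58.1, 61.9 and 64.9 CPM at day 2, 102, 95.7 and 104 CPM at day 4, and 140, 150 and 141 CPM at day 8. Of the 7 genes, Pfkfb3 alone had libraries that were higher in CPM at each successive stage without overlap. In TPM its day 4 (50.4 to 57.7) and day 8 (53.8 to 60.2) libraries overlapped, and Hk1 was the gene with libraries higher at each successive stage. The mean was 1.42-fold that of undifferentiated cells at day 2, 2.31-fold at day 4 and 3.3-fold at day 8.

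Pfkfb2, the isoform best known from the heart, where kinases such as Akt activate it, stood at 24.2, 26.4 and 28.6 CPM in undifferentiated cells and at 36.1, 21.7 and 21.9 CPM at day 2. It stood at 50.0, 40.7 and 41.8 CPM at day 4 and at 47.8, 44.8 and 47.4 CPM at day 8. Day 4 and day 8 lay above the earlier stages, and 1 library, day 2 NC, stood apart from the other 2 of its stage. The mean was 1.67-fold that of undifferentiated cells at day 4 and 1.77-fold at day 8. Day 4 and day 8 overlapped, and their ratio changed side with the scale, 1.06 in CPM and 0.815 in TPM.

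A 250-base window upstream of 1 of the 3 RefSeq starts of Pfkfb2 is shown because it held the most core matches among the printable windows (RefSeq, GRCm38.p6, minus strand, chr1:130715822-130716071), with capitals marking GCGTG and an E-box.
Pfkfb2: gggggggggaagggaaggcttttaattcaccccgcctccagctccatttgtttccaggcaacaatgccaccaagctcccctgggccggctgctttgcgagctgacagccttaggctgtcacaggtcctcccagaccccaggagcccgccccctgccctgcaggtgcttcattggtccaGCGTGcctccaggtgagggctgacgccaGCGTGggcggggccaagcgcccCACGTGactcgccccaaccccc
The window held 2 copies of GCGTG and 1 E-box, which counts as ACGTG on each strand, all within 72 bases of the start.

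Within the family, Pfkfb3 held 53.2, 42.6 and 49.8% of the TPM in undifferentiated cells and 62.0, 63.3 and 61.6% at day 8. Pfkfb2 held 32.2, 46.5 and 41.8% and then 28.3, 26.1 and 28.0%. The undifferentiated shares were widely spread, and in the naloxone library Pfkfb2 stood above Pfkfb3. The summed TPM of the family was 44.1 ± 2.19 before differentiation, 49.9 ± 6.02 at day 2, 92.1 ± 8.32 at day 4 and 90.2 ± 4.34 at day 8 (SD, n = 3). Pfkfb4, the testis-type isoform that hypoxia induces in many cells, went from a mean of 3.49 CPM to 9.6, 10.2 and 15.3 CPM. Its share of the TPM was 4.85% in undifferentiated cells, highest at day 2 (11.4% ± 0.849), 7.65% at day 4 and 8.85% at day 8. Pfkfb1, the liver and muscle isoform, stood at 1.66 CPM in undifferentiated cells and 0.899 CPM at day 8.

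Few genes shared the course of Pfkl, and many that of Pfkm. Over 10705 genes with a mean of at least 5 CPM, the Pearson r of log2(CPM + 1) over the 14 libraries was above 0.95 for 583 genes with Pfkm, 207 with Pfkfb3, 159 with Hk1, 77 with Hk2, 33 with Pfkp, 5 with Pfkfb2 and 1 with Pfkl. The most alike were A2m (0.990) for Hk1, Ccdc18 (0.981) for Hk2, Clmn (0.983) for Pfkp, Ddr1 (0.996) for Pfkm, Arhgef12 (0.972) for Pfkfb2 and Nedd4l (0.994) for Pfkfb3. For Pfkl the 3 most alike were P4ha1, a collagen prolyl hydroxylase (0.956), Dmpk (0.948) and Fam162a (0.923), each lowest at day 2. P4ha1, for example, had means of 97.2, 44.7, 57.0 and 80.9 CPM from the undifferentiated stage to day 8. Among the isoform genes r was 0.87 between Hk1 and Pfkm, 0.86 between Pfkm and Pfkfb3, 0.71 between Hk2 and Pfkl, -0.85 between Hk2 and Pfkm, and -0.52 between Hk1 and Hk2. These values describe 14 libraries that share their stages, and carry no test.

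Around the isoform genes, 81 genes of glucose metabolism and its regulation were examined in 5 lists, of which 75 passed the filter on low counts. At day 2 against undifferentiated cells 21 of the 75 were higher and 36 lower (background 69.0% of all genes called, 33.4% higher and 35.6% lower). At day 4 it was 18 higher and 34 lower (background 61.8%, with 31.1% higher and 30.7% lower), and at day 8 it was 34 higher and 29 lower (background 79.8%, with 41.5% higher and 38.3% lower). From day 4 to day 8 it was 47 higher and 10 lower (background 67.9%, with 36.7% higher and 31.1% lower), and from day 2 to day 4 it was 14 higher and 29 lower (background 51.3%, with 26.8% higher and 24.5% lower). On the TPM scale, which moved the median of all genes from 0.07 to -0.29 (log2) between day 4 and day 8, those splits were 30 higher and 22 lower from day 4 to day 8 and 20 higher and 15 lower from day 2 to day 4. Calls from day 4 to day 8 were thus mostly higher on both scales, while the majority from day 2 to day 4 turned with the scaling. At day 8 against undifferentiated cells the split on the TPM scale was 29 higher and 31 lower, so that this majority turned too. Of all genes called on the TPM scale, 29.5% were higher from day 4 to day 8, against 57.7% of those called in the lists. From day 2 to day 4 it was 75.3% against 57.1%, and at day 8 against undifferentiated cells 43.7% against 48.3%. In the edgeR fit these shares were 54.1% against 82.5%, 52.2% against 32.6% and 52% against 54%. Relative to all genes, the lists thus leaned the same way on both scales.

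Genes of glucose entry and of the steps that follow the isoform genes were mostly lower at day 2 and day 4. Of 22 tested genes of glucose entry and lower glycolysis, 15 were lower and 6 higher at day 2, with a median log2 change of -1.01 against -0.01 over all genes, and 9 were lower and 9 higher at day 8, with a median of 0.23 against 0.05. From day 4 to day 8, 16 were higher and 2 lower. Over all genes 69.0% were called at day 2, 79.8% at day 8 and 67.9% from day 4 to day 8 (36.7% higher and 31.1% lower). The splits on the TPM scale given above are for the 5 lists together and not for this list. Slc2a1, the glucose transporter of astrocytes and brain endothelium, had means of 50.6 ± 2.77, 17.3 ± 2.4, 30.2 ± 0.31 and 129 ± 14.4 CPM (SD, n = 3) over the 4 stages in order, a fall and a regain like that of Pfkp. Aldoc, the brain aldolase and an astrocyte marker, rose from 84.4 to 961 CPM by day 2 and to 1094 CPM at day 8 (log2 change 3.70 ± 0.10 (SE), edgeR adjusted p = 4.15e-10). Ldhb rose to 1146 CPM at day 8 (log2 3.04 ± 0.09, edgeR adjusted p = 6.66e-10). Slc16a1, a lactate transporter, rose to 429 CPM (2.58 ± 0.08), whereas Slc16a3, the lactate exporter of highly glycolytic cells, fell from 20.7 to 0.724 CPM, about the level of 3 counts (-4.88 ± 0.35). Slc16a3 and Hk2 were thus both low at every differentiating stage.

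**Figure D3:**
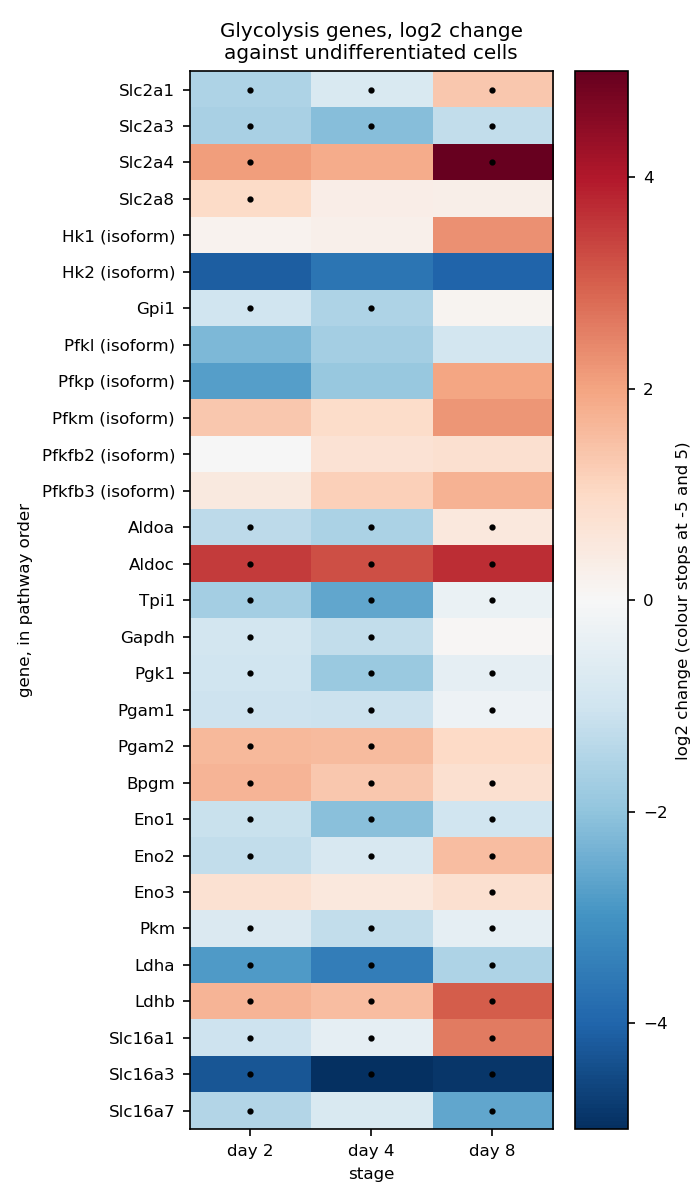
Log2 change against undifferentiated cells at day 2, day 4 and day 8 (columns, colour) for glycolysis genes in pathway order (rows), fitted over 12 libraries; dots mark genes outside the 7 isoform genes with an edgeR adjusted p under 0.05, and the isoform genes carry no test. Most rows from Aldoa to Pkm are blue at day 2 and day 4 and paler or red at day 8, while Hk2 and Slc16a3 stay deep blue and Aldoc and Ldhb stay red.

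In the side branches that leave glycolysis above phosphofructokinase, of 8 pentose phosphate genes 1 was higher and 4 lower at day 2 (background 69.0% called), and 5 were higher and 3 lower at day 8 (background 79.8%). G6pdx, which opens that branch, rose from 78.8 to 161 CPM (log2 1.03 ± 0.09), H6pd from 7.86 to 17.0 CPM and Taldo1 from 129 to 240 CPM, and Rpe fell from 58.4 to 13.7 CPM (-2.13 ± 0.22). Of 13 glycogen and hexosamine genes 8 were higher and 3 lower at day 8, against the same background. Pygb, the brain glycogen phosphorylase, rose from 59.9 to 1672 CPM (log2 4.80 ± 0.09, edgeR adjusted p = 6.62e-11), Ppp1r3c, a subunit that targets a phosphatase to glycogen, from 23.7 to 331 CPM and Ugp2 from 85.3 to 313 CPM. Gfpt2, which diverts fructose phosphate from Pfkl, Pfkp and Pfkm into hexosamines, fell from 46.1 to 11.0 CPM (-2.08 ± 0.15). Its relative Gfpt1, named after its values were seen, stood higher, at 101 CPM in undifferentiated cells and 110 CPM at day 8. That difference missed the threshold (0.11 ± 0.10, edgeR adjusted p = 0.353).

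Of the enzymes that oppose phosphofructokinase or run the pathway backwards, 6 of 9 were tested, and 3 were higher and 3 lower at day 8 (background 79.8% called). Tigar, which degrades the activator that Pfkfb2 and Pfkfb3 make, fell from 27.7 to 15.8 CPM (log2 -0.81 ± 0.12). Fbp2, a fructose bisphosphatase, did not pass the filter, with stage means of at most 0.525 CPM. Its relative Fbp1, named after its values were seen, rose from 0.359 to 7.06 CPM at day 2 (log2 4.20 ± 0.49, edgeR adjusted p = 3.02e-05) and stood at 3.77 CPM at day 4 and 1.39 CPM at day 8 (1.92 ± 0.63, edgeR adjusted p = 0.0165). Pcx, the pyruvate carboxylase typical of astrocytes, rose from 115 to 482 CPM (2.06 ± 0.08), and G6pc3 from 17.9 to 63.2 CPM. Pck2 fell from 40.5 to 23.6 CPM.

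Among 26 tested regulators and binding partners of the isoform genes 9 were higher and 11 lower at day 8 (background 79.8% called). Hif1a, the hypoxia factor with Hk2 and Pfkfb3 among its known targets, fell from a mean of 238 to 79.8 CPM at day 8 (log2 -1.60 ± 0.20, edgeR adjusted p = 2.76e-05). Its mean at day 2 was 153 CPM (-0.70 ± 0.19, edgeR adjusted p = 0.00799). The day 2 libraries were widely spread, with an SD of 67.4 CPM against 7.47 CPM in undifferentiated cells and 7.11 CPM at day 4. The day 2 mean is therefore not read as a fall shared by all libraries of that stage. At day 4 Hif1a stood at 204 CPM, and its difference from undifferentiated cells missed the threshold (edgeR adjusted p = 0.32). Its relative Epas1 rose from 6.92 to 115 CPM (4.04 ± 0.15), Vhl, which marks both factors for degradation, rose from 58.0 to 223 CPM, and Egln3, a prolyl hydroxylase and hypoxia target, fell from 51.4 to 11.7 CPM. Myc, another known activator of Hk2, fell from 176 to 59.8 CPM at day 2 and stood at 104 CPM at day 4 and 61.8 CPM at day 8 (-1.52 ± 0.07 at day 8). Vdac1, the mitochondrial channel on which Hk1 and Hk2 dock, stood at 351 CPM in undifferentiated cells, 214 CPM at day 4 and 436 CPM at day 8 (0.31 ± 0.08, edgeR adjusted p = 0.00323), but on the TPM scale the day 8 difference was -0.01 (limma adjusted p = 0.941). Protein and activity of these factors were not measured.

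The drug comparisons asked whether an opioid antagonist or agonist moved the isoforms at matched stages, over 4 libraries a treatment. None of the 7 isoform genes passed the threshold for naloxone against NC, DAMGO against NC or naloxone against DAMGO, and 0% of the 13413 genes did in each comparison (edgeR). Unadjusted p was under 0.05 for 1344, 325 and 245 genes, and DESeq2 also called 0 genes in each. Without the day 8 DAMGO library 2 genes, neither an isoform gene, passed for DAMGO against NC and 2 for naloxone against DAMGO. For Hk1 the fitted log2 difference was 0.10 ± 0.06 (SE) with naloxone (95% interval -0.03 to 0.23, edgeR adjusted p = 0.496) and 0.07 ± 0.06 with DAMGO (-0.06 to 0.20, edgeR adjusted p = 0.952). For Hk2 it was 0.07 (-0.20 to 0.34) and 0.17 (-0.10 to 0.45). No bound of these intervals lay above 0.45 or below -0.20.

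The phosphofructokinase subunits gave no call either. Pfkl differed by 0.07 (-0.19 to 0.32) with naloxone and 0.03 (-0.22 to 0.29) with DAMGO. Pfkp differed by 0.10 (-0.10 to 0.30) and 0.05 (-0.16 to 0.25), respectively. The difference for Pfkm was 0.12 (-0.07 to 0.31) with naloxone and 0.06 (-0.13 to 0.25) with DAMGO. All 6 intervals of the subunits crossed 0. The interval for Pfkfb3 was the narrowest of the PFKFB pair, at -0.02 (-0.17 to 0.14) with naloxone and 0.03 (-0.13 to 0.18) with DAMGO. The 2 drugs share the NC libraries, and between them the members differed by -0.11 (Hk2) to 0.06 (Pfkp and Pfkm), with an edgeR adjusted p = 1.0 for each.

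The lowest fitted value was that of Pfkfb2, at -0.27 ± 0.14 (-0.57 to 0.03, edgeR adjusted p = 0.473) with naloxone and -0.20 ± 0.14 (-0.51 to 0.10, edgeR adjusted p = 0.952) with DAMGO. The gap was widest at day 2, where Pfkfb2 stood at 36.1 CPM in the NC library against 21.7 and 21.9 CPM with the drugs (249, 171 and 122 estimated counts). NC was also highest at day 4 (50.0 against 40.7 and 41.8 CPM) and day 8 (47.8 against 44.8 and 47.4 CPM). In undifferentiated cells it was lowest (24.2 against 26.4 and 28.6 CPM). Without the day 2 libraries the fitted values for naloxone and DAMGO were -0.11 and -0.03, and over the differentiating libraries only they were -0.38 and -0.33. The difference in drug effect between differentiating and undifferentiated cells was -0.50 for naloxone and -0.56 for DAMGO (edgeR adjusted p = 1 for both), and this interaction was past the threshold for 0 of 13413 genes (0%).

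**Figure D4:**
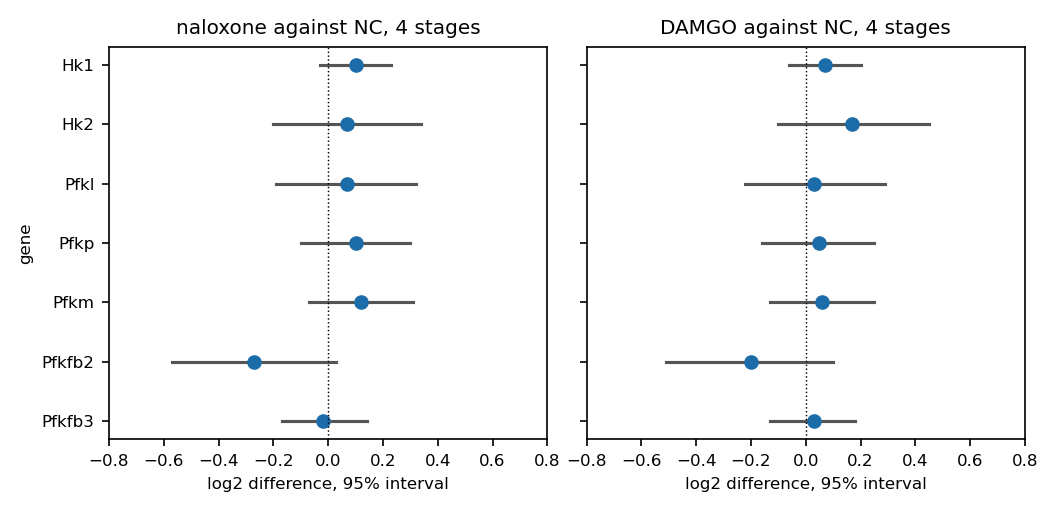
Fitted log2 difference of each isoform gene (horizontal axis, with 95% interval as a line) for naloxone against NC (left) and DAMGO against NC (right) over 4 stages. Every interval crosses 0, and that of Pfkfb2 lies lowest in both panels, at -0.27 and -0.20.

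As shares of TPM, DAMGO and NC differed in 1 direction at all 4 stages for Hk1 and Hk2 only. The Hk2 share was higher with DAMGO by 7.37, 2.82, 0.765 and 0.201 percentage points from the undifferentiated stage to day 8, a mean of 2.79 ± 3.26 (SD, n = 4), and that of Hk1 was lower by a mean difference of -2.36 ± 2.72. The exact two-sided permutation p was 0.125 for both, the smallest that 4 stages can give, so the design could not reach 0.05; 7 isoforms were compared per drug, and no value was past the threshold before or after adjustment. By shares of counts the Hk2 difference was 0.38 ± 0.328 points, higher at 3 of 4 stages (exact permutation p = 0.25), so the same direction at every stage was seen only with the assigned lengths. With naloxone 0 of the 7 shares moved in 1 direction at all 4 stages.

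The reference libraries, which carry no drug label, gave a different make-up of the phosphofructokinase family. At passage 8 and passage 13 Hk1 held 76.9 and 75.8% of hexokinase TPM and Hk2 held 21.5 and 23.7%. Pfkm held 49.7 and 55.1% of phosphofructokinase TPM and Pfkl 27.0 and 28.4%, so that the muscle-type subunit led in both references, by 1.85 and 1.94-fold over Pfkl. In the 3 undifferentiated libraries of the drug experiment Pfkl led over Pfkm instead, by 1.6, 1.36 and 1.81-fold. The order of these subunits thus differed between sets of libraries that are all labelled undifferentiated.

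Between these sets of libraries Pfkl, Hk2 and Hk1 differed in level. Pfkl stood at 60.9 and 59.8 CPM in the references and at 159 to 200 CPM in the undifferentiated drug-experiment libraries, a ratio of means of 2.9. Hk2 stood at 28.3 and 27.0 CPM against 58.1 to 64.9 CPM (2.24) and Hk1 at 83.9 and 93.7 CPM against 126 to 137 CPM (1.48). These 3 genes did not overlap between the sets, and the other 4 did, with ratios of 1.05 to 1.19. The share of all genes without overlap between these few libraries was not counted, so this count does not set the isoform genes apart. Pfkm, for example, stood at 86.7 and 91.3 CPM against 88.1 to 104 CPM.

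**Figure D5:**
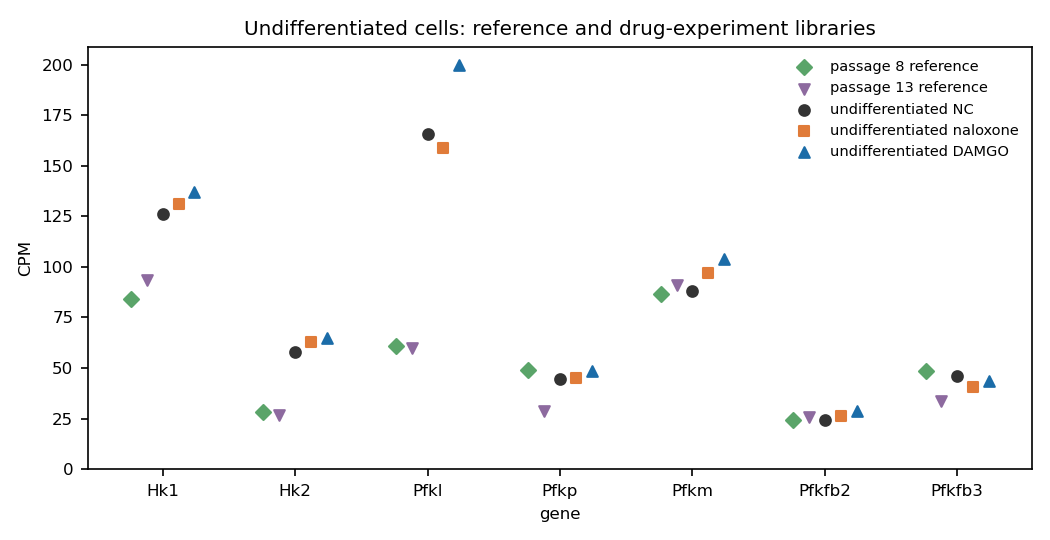
Level of each isoform gene (CPM, vertical axis from 0) in the 2 reference libraries and the 3 undifferentiated libraries of the drug experiment (symbols). Hk1, Hk2 and Pfkl are lower in both references than in all 3 drug-experiment libraries, and the other 4 genes overlap.

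A comparison of undifferentiated NC with the passage 8 reference, chosen after these values were seen, called 2 of the 7 isoform genes, both higher in NC, against 0.325% of 13855 genes (0.217% higher and 0.108% lower). The log2 difference was 1.49 ± 0.21 (SE) for Pfkl (edgeR adjusted p = 0.0185) and 1.05 ± 0.17 for Hk2 (edgeR adjusted p = 0.0296), and 0.59 ± 0.11 for Hk1 missed the threshold (edgeR adjusted p = 0.0715). The comparison was chosen from the values it tests, so these calls describe the libraries and are no independent support. The reference side is 1 library, and the NC side is the level that the additive model fits from the drug-experiment libraries. The spread is that of the 12 libraries of the drug experiment, assumed to hold for the reference. Over 17 alternatives Pfkl was past the threshold in 14 (adjusted p 1.66e-06 to 0.0857), Hk2 in 7 (0.00141 to 0.24) and Hk1 in 3 (0.011 to 0.245). Pfkl missed edgeR's threshold without undifferentiated NC, where the additive model fills in the value (edgeR adjusted p = 0.0857), without day 4 DAMGO (edgeR adjusted p = 0.0558) and without day 8 NC (edgeR adjusted p = 0.0526). One of the 17, the mean of all 3 undifferentiated libraries against that of both references, called 3 of the 7 isoform genes against 0.686% of genes (0.52% higher). It restates the values that prompted it, and the spread between the references does not enter it.

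Between undifferentiated NC and the passage 8 reference, the list of glucose entry and lower glycolysis had a median log2 difference of 0.47. The other pathway lists had medians of -0.01 to 0.04, and all genes 0.01. The genes named next were picked by this comparison, which was itself chosen after values were seen. They were the transporters Slc2a3 (log2 1.70 ± 0.19, SE) and Slc2a1 (1.27 ± 0.17) and the exporter Slc16a3 (4.75 ± 0.61), all higher in NC. Gpi1, the isomerase between the hexokinase and phosphofructokinase steps, was also higher (0.68 ± 0.11). Slc2a1 stood at 20.1 and 20.3 CPM in the references and at 49.0, 49.1 and 53.8 CPM in the undifferentiated drug-experiment libraries, and Slc16a3 at 0.658 and 0.956 CPM against 16.7, 17.6 and 27.9 CPM. Proliferation genes summed to 3184 to 3568 CPM in the references and 3026 to 3166 CPM in the drug-experiment cells, and neural stem cell markers to 4036 to 4479 CPM and 4094 to 4342 CPM. Culture set and the NC condition cannot be told apart, and the labels state no oxygen level, medium or cell density.

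Between passages 13 and 8 none of the 7 isoform genes passed the threshold, against 0.0217% of 13855 genes (edgeR). Pfkp was lower at passage 13, 28.6 against 49.1 CPM (log2 -0.79 ± 0.17, unadjusted p = 0.000746, edgeR adjusted p = 0.312), and so was Pfkfb3, 33.6 against 48.7 CPM (-0.54 ± 0.15, edgeR adjusted p = 0.585). The other 5 differed by -0.07 to 0.16. Each passage was 1 library, so these differences compare libraries.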

How the data were processed

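Total RNA of mouse cells was sequenced in 14 TruSeq libraries, per the labels' protocols. Bowtie, RSEM and the mm10 build are named per the submitters' processing notes, with no versions given in the sources used here. For 29713 genes the authors deposited expected counts, TPM and FPKM, as the columns are named per the file headers. Expected counts as deposited are estimates, not whole for 10.4 to 13.1% of genes, and were rounded to whole numbers for the tests. TPM gave the share of each isoform in its family, and the deposited FPKM served only to check that it is proportional to TPM. RSEM divides reads shared by related genes among them. The transcript length used for TPM differs between libraries. Symbols came from a GENCODE annotation of the same build, which matched 29202 genes.

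Levels (CPM) are expected counts divided by the TMM-scaled library size. Stage and drug comparisons came from edgeR 4.0.16 (R 4.3.3, quasi-likelihood test, filterByExpr, additive model of stage and treatment over 12 libraries with 6 residual degrees of freedom), on 13413 genes. P-values were adjusted by Benjamini-Hochberg over all of them, with a threshold of 0.05. Comparisons with the references came from a 14-library model with a term for each reference, on 13855 genes. The 95% intervals use the t distribution of the fit. Shares were compared with exact permutation tests within stage. Scripts were tested on simulated data. Alternatives used DESeq2 1.42.0, limma 3.58.1, mgcv 1.9.3 (for a trend on GC content and length), other scalings and filters, and each library left out.

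The 7 isoform genes, the gene lists and the rule for named genes were chosen with earlier results of these data known. The rule takes up to 4 genes a list past the threshold with the largest change at day 8 and at least 5 CPM on average, plus the 3 genes most like each isoform gene, of which the first is given for 6 of them. Aldoc, Tigar, Fbp2, Hif1a, Myc, Vdac1, Slc2a1, Hk3, Hkdc1, Pfkfb1 and Pfkfb4 are always named, and 1 further gene of that rule is not reported here. Promoter sequences are from RefSeq (GRCm38.p6), which matched all 7 isoform genes in 14 windows.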

Additional observations from a re-analysis of the deposited data

How the results depend on the processing

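No paired analysis was possible because the labels give no replicate numbers and each condition is 1 library; stage is a term of every drug fit. In all alternatives run, 1 family changed its leading isoform between undifferentiated cells of the drug experiment and day 8, and 5 of the 7 isoform genes were higher at day 8. These alternatives were other scalings, shares of counts, fixed lengths and each library left out. The reference libraries were not part of that count, and Pfkm already led its family in both of them (49.7 and 55.1%). Of 168 stage shares recomputed, 23 moved by more than 1 SD, and of 560 stage changes 6 had the other sign, of which 5 were of Pfkfb2 and 1 of Hk1 between day 2 and day 4 (-0.00). Drug comparisons gave 0 isoform genes past the threshold in every alternative, with a smallest adjusted p of 0.275, and 26 of 399 values had the other sign. Isoform shares moving in 1 direction at all stages with naloxone numbered 0, and 0 to 3 with a library and so its stage left out, when fewer stages must match. With DAMGO they numbered 2, and 2 to 3 with a library left out, but 0 by shares of expected counts. In undifferentiated NC against the passage 8 reference the isoform genes called numbered 2, but 1 by DESeq2 and 0 to 3 with a library left out; the cause was not tested. Among 13855 genes, calls in that comparison went from 15 without undifferentiated NC to 125 without day 2 NC. For passage 13 against passage 8 they went from 0 to 17. The pathway lists had 57, 52 and 63 genes called at day 2, day 4 and day 8, with ranges of 53 to 59, 48 to 55 and 59 to 64 over the alternatives. The counts of day 4 against day 2 ranged from 31 to 51 and those of day 8 against day 4 from 52 to 60. With 1 library a condition, a drug effect at a single stage was not tested here, and TPM of Hk2 after the undifferentiated stage rests on 21 to 33 estimated counts a library.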
